A study of Danio rerio with 35 samples.

Results

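The 7 genes described here, epd, slc13a4, slc5a5, rpe65a, vtnb, loxl2b and hapln1b, were measured by RNA sequencing in the zebrafish telencephalon. They were listed together as genes of the leptomeninges and of the barriers around the brain. Whether each marks these cells here was not tested, and neither loxl2b nor rpe65a was shown to vary with epd in telencephalon. They were chosen by their measured levels in sorted Mpeg1+ cells, lower in the libraries labelled grna-/-;grnb-/- than in those labelled wildtype, so their values in that population are a description and were not tested. Each was found by its Ensembl identifier, matched to its symbol without regard to case. All 7 were present in each of the 3 tables, among 24030 genes in whole telencephalon, 25248 in Olig2+ cells and 23158 in Mpeg1+ cells, and all 7 passed the minimum mean of 5 normalised counts in each.

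Leptomeningeal fibroblasts line the surface of the brain, lay down its outer basement membrane and collagen, and exchange solutes with the cerebrospinal fluid. Epd, ependymin, is a secreted glycoprotein of fish cerebrospinal fluid made by these cells. Slc13a4 is a sodium-coupled sulfate transporter and Slc5a5 the sodium/iodide symporter. Rpe65a belongs to the retinoid isomerases of the visual cycle. Vitronectin (vtnb) is an adhesive glycoprotein of matrix and plasma, Loxl2b a lysyl oxidase-like enzyme of the family that crosslinks collagen, and Hapln1b a link protein that ties hyaluronan to proteoglycans.

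The study asked how loss of both zebrafish progranulin genes affects microglia, oligodendroglial cells and the ageing telencephalon, in 35 libraries. Whole telencephalon was taken from grna-/-;grnb-/- animals (mutant) and wildtype animals at 18 months (old) and 5 months (young), with 5 libraries in each of the 4 groups. Mpeg1+ cells were sorted from 5-month Tg(mpeg1:mCherry) fish (4 libraries labelled mutant, 3 labelled wildtype) and Olig2+ cells from 5-month Tg(olig2:DsRed) fish (4 and 4), each library from 3 pooled telencephali. The mpeg1 promoter is active in macrophages and microglia, the olig2 promoter in oligodendroglial cells and some neurons. Both mutant alleles shift the reading frame, so their transcripts can still be counted.

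The targeted genes were looked at first. In telencephalon, grnb lay at 15.8 ± 6.67 normalised counts in old mutant against 89.5 ± 23.6 in old wildtype libraries, and at 16.7 ± 3.37 in young mutant against 716 ± 189 in young wildtype libraries (SD, n = 5 each). In Olig2+ cells grnb was also lower in mutant libraries (log2 fold change -1.62, limma adjusted p = 0.0200, and 0.0658 or 0.0664 without wildtype library 1 or 3). In Mpeg1+ cells grnb went the other way, with 635, 588, 579 and 499 normalised counts in the libraries labelled mutant against 268, 51.3 and 258 in those labelled wildtype, and grna did not tell the labels apart (log2 fold change -0.34, limma adjusted p = 0.409). Grna was not called in Olig2+ cells either (0.53, limma adjusted p = 0.339), nor in young mutant over young wildtype telencephalon (-0.51, adjusted p = 0.230). It was called lower in old mutant over old wildtype telencephalon (-1.56, adjusted p = 0.00287). Because of grnb, the Mpeg1+ libraries are called by their labels throughout. Depth was 13.9 to 29.4 M reads assigned to genes in telencephalon, 25.7 to 31.6 M in Mpeg1+ libraries labelled mutant, and 6.11, 29.1 and 27.2 M in those labelled wildtype. Olig2+ mutant libraries held 6.38 to 21.8 M reads against 37.1 to 59.3 M in Olig2+ wildtype libraries, so the groups did not overlap in depth. Microglial genes summed to 37684 to 38967 RPM (reads scaled to 1000000 per library) in Mpeg1+ libraries labelled mutant and 29521 to 40486 in those labelled wildtype. The 12 oligodendrocyte lineage genes summed to 198 to 426 RPM in Olig2+ mutant and 233 to 422 in Olig2+ wildtype libraries, below the 680 to 1830 of the whole telencephalon libraries.

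Epd took more reads than nearly all other genes in the Mpeg1+ libraries labelled wildtype and was lower by about 202 times in those labelled mutant. It had 2021, 1958, 2518 and 2419 normalised counts in the mutant-labelled libraries against 405683, 519236 and 290063 in the wildtype-labelled ones. In the wildtype-labelled libraries it took 1.52 to 2.26% of all reads, more than all but 1 or 2 other genes. In RPM pooled over libraries, the fall was 202 times with a 95% counting interval of 199 to 206, which leaves out the spread between libraries. Without 1 wildtype-labelled library it was 172 to 236 times, and the ratio of the mean normalised counts was 182. Unlike the other 6 members, epd was still well measured in every mutant-labelled library, at 84.1 to 107 RPM.

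Both transporters came close to 0 in the libraries labelled mutant. Slc13a4 had 3.69, 4.53, 0.824 and 0 normalised counts there against 2019, 1651 and 1579 in the wildtype-labelled libraries. Slc5a5 had 2.95, 1.81, 0.824 and 2.50 against 1255, 1391 and 1088. The wildtype-labelled libraries were within a factor of 1.28 of each other for both genes. In reads, 11 against 5011 were assigned to slc13a4 (831 times lower, counting interval 464 to 1665) and 10 against 3729 to slc5a5 (680 times lower, 369 to 1419).

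Rpe65a and the matrix genes had at most 1 read over all 4 libraries labelled mutant. Rpe65a had 0.738, 0, 0 and 0 normalised counts there against 689, 1874 and 348 in the wildtype-labelled libraries, vtnb had 0 in all 4 against 1395, 2553 and 299.9, and loxl2b had 0 in all 4 against 137, 601 and 4.93. Hapln1b had 0, 0, 0.824 and 0 against 89.5, 76.6 and 55.6. Wildtype-labelled library 3 was the lowest and library 2 the highest for rpe65a, vtnb and loxl2b, and loxl2b differed by 122 times between these libraries. With a floor of 3 counts over the group, vtnb was at least 2508 times and loxl2b at least 495 times lower in the mutant-labelled libraries. Wildtype-labelled library 2 held 3233 of the 4127 vtnb reads and 761 of the 814 loxl2b reads, and without it the bounds were 1018 and 60.4 times; without wildtype-labelled library 3 they were 3985 and 869 times. For rpe65a and hapln1b a single read against 3099 and 206 gave ratios of 5650 (counting interval 1013 to 223231) and 376 (66.7 to 14905), the first 2481 without wildtype-labelled library 2.

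**Figure D1:**
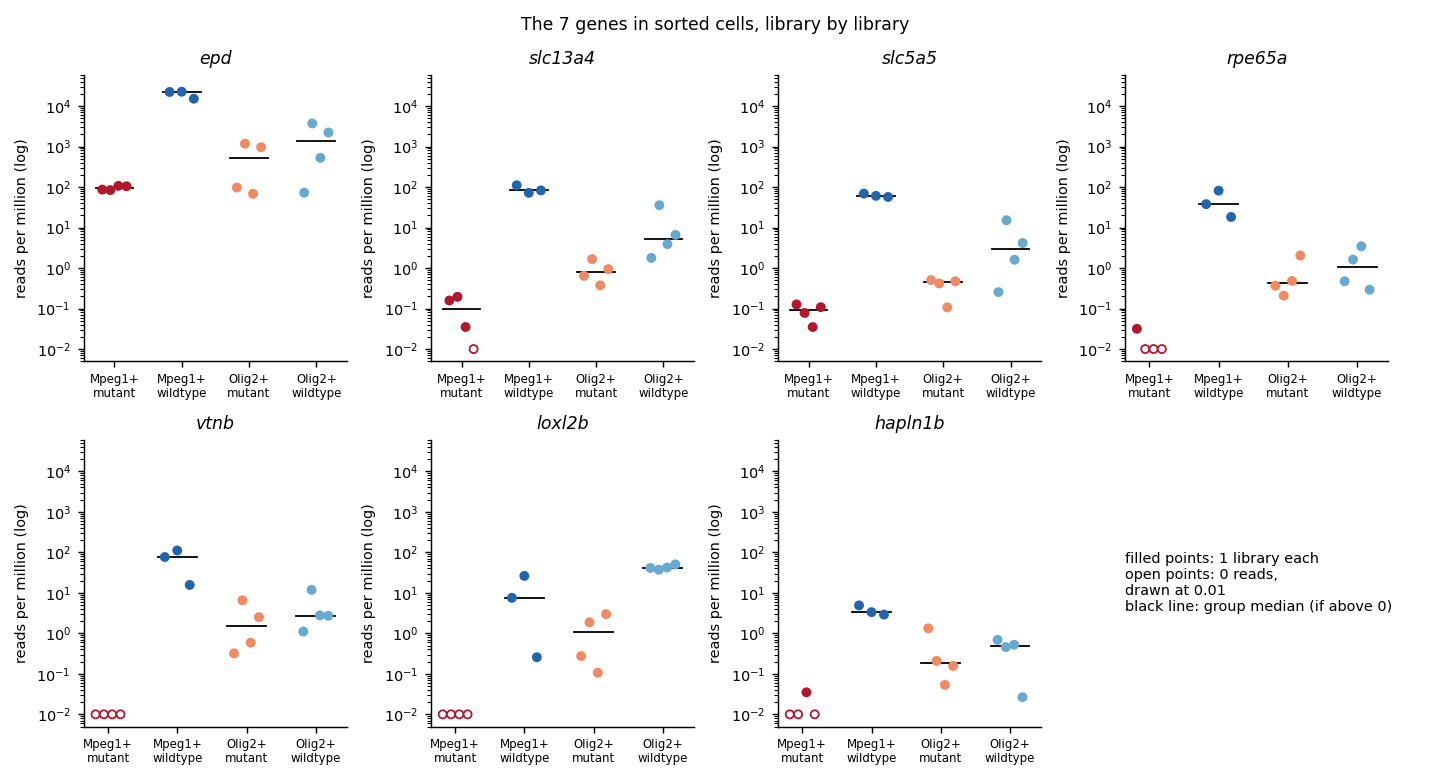
RPM (reads scaled to 1000000 per library, log axis) of the 7 genes in sorted cells, 1 point per library, mutant left of wildtype in each population; open points mark 0 reads and are drawn at 0.01, and the black line is the group median. In Mpeg1+ cells every mutant-labelled point lies below every wildtype-labelled one for all 7 genes. In Olig2+ cells loxl2b separates the genotypes widely. Slc13a4 does so only just, at up to 1.67 RPM in mutant against at least 1.78 in wildtype libraries.

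All 7 members lay lower in the Mpeg1+ libraries labelled mutant with no overlap, as the choice of members fixed; of all 21155 genes tested 13.2% did so, and 8.50% were called, 3.57% lower and 4.93% higher (limma adjusted p of at most 0.05 and a log2 fold change of at least 1 in size). The members' log2 fold changes, on the log2(normalised count + 1) scale, had a median of -8.74 and ran from -10.00 to -5.98, beside a median of 0.05 over all genes. Of the 1798 genes called, 42.0% were lower; after scaling to equal totals, which moved the median of all genes by -0.22, the share was 59.2%, and with DESeq2 56.3%. In these bulk libraries fewer cells of a type and less RNA per cell cannot be told apart.

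Some of the other genes listed for meningeal fibroblasts were lower in the same libraries, in lists chosen with earlier results of these data known. A set of 3 lists, transcription factors of head mesenchyme, fibroblast matrix, and meningeal transport and retinoid handling, held 69 tested genes that are not members. Of these 22 were called lower (31.9% beside 3.57% of all genes) and 1 higher, and the rest were not called. The log2 fold changes of the 69 had a median of -1.93. The count of 23 rested on few libraries. It was 42 without wildtype-labelled library 2, 15 without wildtype-labelled library 3, and 12, 11, 15 and 14 without mutant-labelled libraries 1, 2, 3 and 4. It was 2 when the most alike mutant-labelled libraries were averaged (1 with 2, and 3 with 4). These pairs differed by a chi-square per gene of 1.81 and 10.3, against 29.9 to 46.9 for the other pairs. Counting error alone would give about 1, so libraries 1 and 2 were nearly alike, and whether they are separate samples was not tested. The other Mpeg1+ list counts and SDs below take the 4 mutant-labelled libraries as separate samples, and no averaged fit is given for those counts.

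Among carriers, ceruloplasmin (cp), a copper-binding ferroxidase, averaged 151 ± 29.7 normalised counts in the libraries labelled mutant (SD, n = 4) against 23598 ± 8500 in those labelled wildtype (SD, n = 3). The retinol-binding protein gene rbp4 averaged 90.3 ± 21.5 against 8068 ± 1846, and aldh1a2, which makes retinoic acid, 1.86 ± 2.18 against 281 ± 194. In this transport and retinoid list 10 of 23 tested genes were called lower (43.5% beside 3.57% of all genes) and 0 higher, with a median of -2.76 on the log2 scale.

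The matrix list had 6 of 26 tested genes called lower (23.1% beside 3.57% of all genes) and 1 higher, with a median of -1.35. Its collagen genes col1a1a (0.206 ± 0.412 against 540 ± 373) and COL6A3 (0.412 ± 0.824 against 260 ± 134; capitals follow the gene-name table) were near 0 in the libraries labelled mutant, and so was dcn, the small proteoglycan decorin, at 3.16 ± 3.94 against 1705 ± 1626. Mmp2, a matrix metalloprotease, stayed at 627.5 ± 57.2 normalised counts in the libraries labelled mutant against 3371 ± 1376 in those labelled wildtype. Of 20 tested transcription factors 6 were called lower (30% beside 3.57% of all genes), among them zic5 (log2 fold change -6.36), osr1 (-6.70) and twist1a (-2.08).

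In the list of the members' close relatives 2 of 21 tested genes were called lower, 9.52% beside 3.57% of all genes, and 0 higher. Both were carriers of the Slc13 family, slc13a2 (log2 fold change -7.55) and slc13a1 (-7.46). Tight junction and adhesion genes had 2 of 15 called lower, the list of hyaluronan enzymes and proteoglycans 0 of 13, blood vessel endothelium 1 of 17 (cdh5, -6.49), meningeal lymphatic endothelium 0 of 6 and mural cells 0 of 11.

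Other marker lists moved with the labels as well, and their part in the members' difference was not tested. Ependymoglia, the radial glia of the telencephalon, had 13 of 18 genes called lower (72.2% beside 3.57% of all genes). Their genes summed to 3891 to 4049 RPM in the libraries labelled mutant against 6790 to 25139 in those labelled wildtype. Heat shock and immediate early genes had 10 of 18 called higher (55.6% beside 4.93% of all genes) and summed to 128972 to 142378 against 7385 to 46922 RPM. Oligodendrocyte lineage genes had 2 of 12 called lower, and microglia 1 of 23 called higher (ctss2.1, log2 fold change 1.25). Neuronal, red blood cell and pineal lists had 0 called in either direction.

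In Olig2+ cells the 7 genes parted. Loxl2b was far lower in mutant than in wildtype libraries, slc13a4 was called lower on a test that single libraries decided, and the other 5 members were not called. Over all 22273 genes tested, 19.7% were called, 12.7% lower and 6.99% higher. Of those calls 64.4% were lower, against 81.1% after scaling to equal totals, which moved the median of all genes by -0.26, and 53.8% with DESeq2.

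Loxl2b had 6.05, 72.2, 2.45 and 69.0 normalised counts in the 4 mutant Olig2+ libraries against 899.8, 751, 896 and 1145 in the 4 wildtype ones. The wildtype libraries were within a factor of 1.53 of each other and the mutant libraries fell into a low pair and a middle pair, all below every wildtype library (13.7% of all genes were lower without overlap). The means were 37.4 ± 38.4 and 923 ± 164 (SD, n = 4 each), and the log2 fold change was -5.60 with a standard error of 0.85 (limma adjusted p = 0.00177). The two-sided exact permutation test gave p = 0.0286, the smallest that 4 against 4 libraries can give. The call was kept in all 17 alternatives, at adjusted p of 1.9e-08 to 0.00734. Its level averaged 42.8 ± 5.60 RPM in wildtype Olig2+ libraries (n = 4) beside 11.3 ± 13.4 in wildtype-labelled Mpeg1+ (n = 3) and 22.9 ± 4.69 in young wildtype telencephalon libraries (n = 5), values from separately normalised tables that were not tested.

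Slc13a4 had 14.1, 64.2, 8.57 and 21.8 normalised counts in mutant Olig2+ libraries against 38.9, 721, 82.4 and 149.5 in wildtype ones. In normalised counts the groups overlapped, since mutant library 2 lay above wildtype library 1. In RPM they just did not, at 0.374 to 1.67 in mutant against 1.78 to 35.7 in wildtype libraries. No share of all genes is given on that scale. The log2 fold change was -2.68 with a standard error of 0.86 (limma adjusted p = 0.0423), while the exact permutation test gave p = 0.0571. Without 1 of the wildtype libraries 2, 3 or 4, or of the mutant libraries 1, 3 or 4, the call was lost, with adjusted p of 0.0627 to 0.137.

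Slc5a5 was not called, at 11.1, 16.0, 2.45 and 10.9 normalised counts in mutant against 5.56, 306, 34.0 and 94.0 in wildtype Olig2+ libraries (log2 fold change -2.41, limma adjusted p = 0.115). Count models on the recovered reads did call it (edgeR -3.65, adjusted p = 0.0236; DESeq2 -3.50, adjusted p = 0.00236), as did limma without wildtype library 1, which held less slc5a5 than 3 of the mutant libraries (-3.39, adjusted p = 0.0380).

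Epd varied more within each genotype than between them. It had 2143, 45362, 1560 and 22298 normalised counts in mutant Olig2+ libraries against 1581, 75135, 11189 and 50351 in wildtype ones, a spread of 29.1 and 47.5 times. Libraries 2 and 4 were the highest in both genotypes. The log2 fold change was -1.08 with a 95% interval of -4.00 to 1.85 (limma adjusted p = 0.599), which spans both no change and a fall much larger than 2-fold.

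The other 3 members overlapped between genotypes. Vtnb ran from 7.06 to 253 normalised counts in mutant and 24.2 to 239.7 in wildtype Olig2+ libraries (log2 fold change -0.93, limma adjusted p = 0.537). Rpe65a ran from 8.02 to 47.2 against 6.63 to 73.1 (-0.55, adjusted p = 0.697), and hapln1b from 1.22 to 29.2 against 0.603 to 15.1 (-0.05, adjusted p = 0.980). Both rest on few reads, 32 of rpe65a and 33 of hapln1b over the 4 mutant libraries, against 301 and 87 over the 4 wildtype ones. Over the members the log2 fold changes had a median of -1.08, beside -0.01 over all genes.

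Of the 70 tested meningeal genes outside the members, 11 were called lower and 1 higher in mutant Olig2+ libraries, that is 15.7% lower beside 12.7% of all genes, with a median of -0.82 on the log2 scale. The transcription factors had 5 of 16 called lower, 4 of them zic genes, which are also active in dorsal neural tissue. Zic2a averaged 1514 ± 1031 in mutant against 7922 ± 2388 in wildtype libraries (log2 fold change -2.63, limma adjusted p = 0.00297), and zic1, zic4 and zic5 had log2 fold changes of -1.92, -1.94 and -2.41. In the matrix list 4 of 28 were called lower and 1 higher: POSTN, periostin, at 362 ± 133 in mutant against 99.5 ± 18.9 in wildtype libraries (1.78, adjusted p = 0.0120). In the transport list 2 of 26 were called lower.

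Of 22 tested relatives of the members 3 were called lower in mutant Olig2+ libraries, 13.6% beside 12.7% of all genes, and 1 higher; their median was -0.17 on the log2 scale. The link protein gene hapln3 averaged 7.55 ± 5.86 in mutant against 71.3 ± 29.6 in wildtype libraries (log2 fold change -3.23, limma adjusted p = 0.00816). LOXL1, another lysyl oxidase-like gene, averaged 181 ± 75.0 against 747 ± 467 (-1.80, adjusted p = 0.0390); without wildtype library 1, 2 or 3, or mutant library 1, 3 or 4, the LOXL1 call ended, at adjusted p of 0.0527 to 0.122.

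Lists of other cell types also moved in Olig2+ cells, and their part in the members' values was not tested. For each list the share of all genes is 12.7% called lower and 6.99% called higher. Junction genes had 7 of 14 called lower (50%) with a median of -1.14, and neuronal genes 5 of 18 (27.8%) with a median of -1.02. Microglial genes had 6 of 22 called higher (27.3%) with a median of 1.04. Neuronal genes summed to 4547 to 7128 RPM in mutant and 9721 to 11708 in wildtype libraries. Ependymoglial genes had 4 of 19 called lower and 2 higher, oligodendrocyte lineage genes 1 of 12 each way (OLIG2, the marker of the sort, lower at 527 ± 507 in mutant against 1226 ± 487 in wildtype libraries, log2 fold change -1.55, limma adjusted p = 0.0496), and stress genes 2 of 18 each way. The OLIG2 call ended in 11 of 17 alternatives, among them leaving out any single library but mutant library 2, at adjusted p of 0.0592 to 0.141.

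In whole telencephalon loxl2b was the 1 member called in any comparison. It was highest in young wildtype libraries, and lower by about 3-fold both in old wildtype and in young mutant libraries. The library values were 85.3, 147.7, 62.4, 108.8 and 26.3 normalised counts in old mutant, 120, 162, 170, 152 and 114 in old wildtype, 125, 152, 182, 201.5 and 143 in young mutant, and 306, 460, 485, 464 and 562 in young wildtype libraries. All 15 libraries that were old, mutant or both lay below the lowest young wildtype library.

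In old wildtype telencephalon loxl2b averaged 144 ± 25.1 normalised counts against 455 ± 93.1 in young wildtype (SD, n = 5 each), a log2 fold change of -1.65 with a standard error of 0.31 (limma adjusted p = 0.000547). It was the 1 member called, where 10.9% of all 19877 genes tested were called, 5.66% lower and 5.21% higher, and 10.3% were lower without overlap. The call was kept in all 31 alternatives. The exact permutation test gave p = 0.00794, the smallest that 5 against 5 libraries can give.

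In young mutant telencephalon loxl2b averaged 161 ± 30.7 against the same 455 ± 93.1 in young wildtype libraries, a log2 fold change of -1.49 with a standard error of 0.31 (limma adjusted p = 0.00161, exact permutation p = 0.00794). Again it was the 1 member called, where 8.79% of all genes were called, 3.82% lower and 4.97% higher, and 11.3% were lower without overlap. Both comparisons used the same young wildtype libraries. Without the 7 libraries rich in pineal transcripts described below, 3 of them young wildtype, the log2 fold change was -1.66 and the adjusted p 0.0537.

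Old wildtype and young mutant libraries were close in loxl2b, with a log2 fold change of -0.16 and a 95% interval of -0.81 to 0.49 (limma adjusted p = 0.737; 7.84% of all genes called). Old mutants were lower still, at 86.1 ± 46.0 against 161 ± 30.7 in young mutants (-1.08, limma adjusted p = 0.0450, with 1.32% of all genes called, 1.02% lower and 0.307% higher). That call ended in 20 of 31 alternatives, among them edgeR, a fit of the 2 groups alone (adjusted p = 0.144), and leaving out 1 of old mutant libraries 1, 3 and 5 or 1 of libraries 2 to 5 of any other group (0.0513 to 0.109). Of the calls over all genes in old over young mutant 76.8% were lower, against 62.8% with edgeR and 57.5% with DESeq2. Against old wildtype the log2 fold change of old mutant was -0.92 (limma adjusted p = 0.0526, not called; 2.81% of all genes called, 1.58% lower and 1.23% higher; 56.4% of the calls were lower, against 45.2% with edgeR and 42.8% with DESeq2). It was called without old mutant library 2 (-1.17, adjusted p = 0.0108) or 4 (-1.06, adjusted p = 0.0435). The age effect in mutants minus that in wildtype was 0.57 (limma adjusted p = 0.415; 6.04% called).

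**Figure D2:**
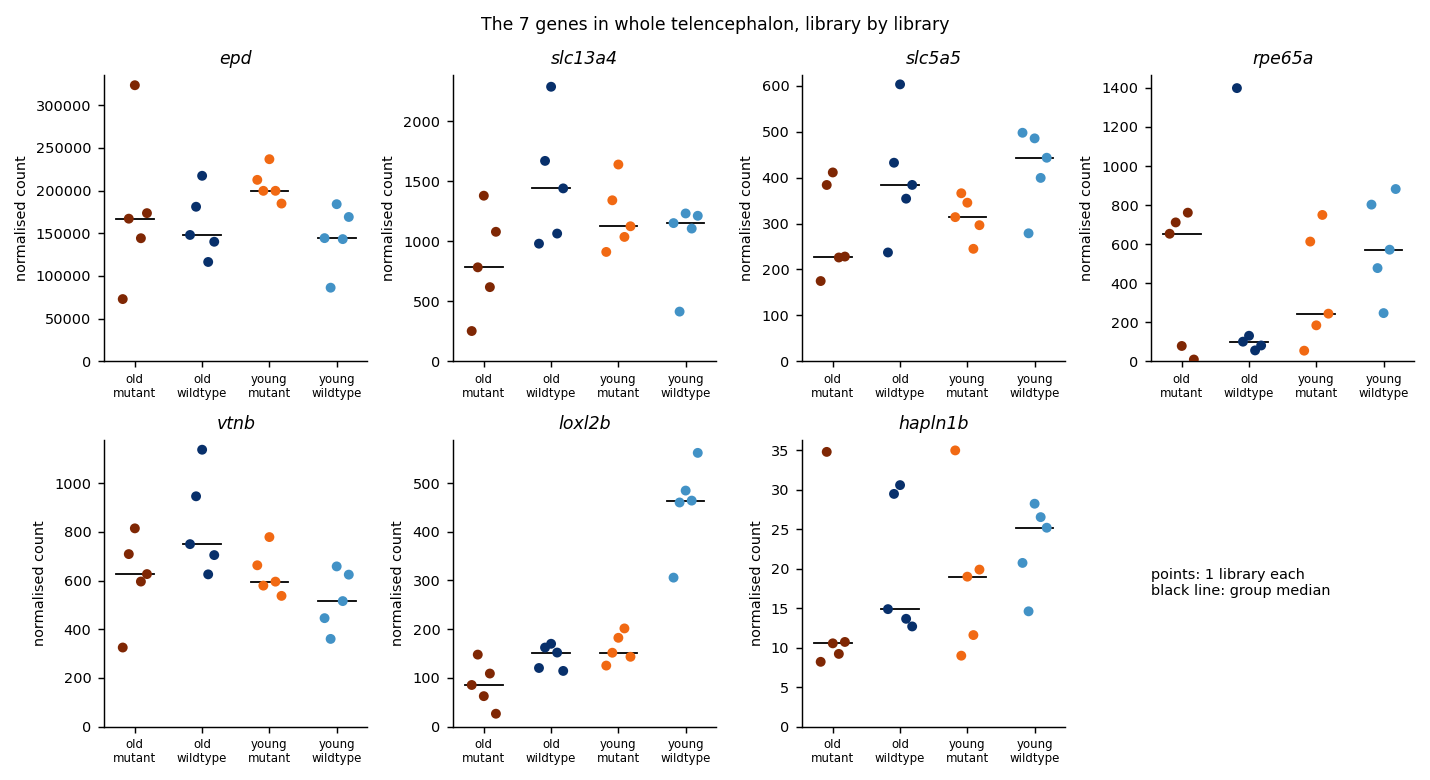
Normalised counts of the 7 genes in whole telencephalon, 1 point per library, in old mutant, old wildtype, young mutant and young wildtype groups; the black line is the group median and each panel has its own axis from 0. Loxl2b in young wildtype lies at 306 to 562, above all other libraries, and rpe65a splits into high and low libraries within groups.

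Epd was abundant in every telencephalon library and was not called in any comparison. It had 212642, 199781, 236867, 199799 and 184863 normalised counts in young mutant against 144329, 86226, 184133, 143180 and 169132 in young wildtype libraries. The lowest young mutant library was just above the highest young wildtype library, which 11.8% of all genes also showed in this direction. The means were 206790 ± 19478 and 145400 ± 37320 (SD, n = 5 each; exact permutation p = 0.00794), but the limma log2 fold change of 0.55 had a 95% interval of -0.06 to 1.16 and an adjusted p of 0.174.

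Epd spread widely in old mutants. Old mutant libraries held 72885, 167137, 323587, 144213 and 173625 and old wildtype libraries 148044, 181113, 217410, 116377 and 140085 normalised counts. Old mutant library 1 was the lowest and library 3 the highest of all 20. On the log2 scale the old mutant level was 0.01 above that of old wildtype (95% interval -0.60 to 0.62), and old wildtype 0.16 above young wildtype (-0.45 to 0.76). The old mutant over young mutant log2 fold change was -0.38 (-0.99 to 0.23).

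Vtnb rose with age in wildtype telencephalon by less than the 2-fold threshold. It averaged 833 ± 208 in old against 521 ± 124 in young wildtype libraries, a log2 fold change of 0.68 (limma adjusted p = 0.0221, exact permutation p = 0.0159), with libraries of 625.7 to 1138 against 360 to 658. Among the alternatives the adjusted p ran from 0.00520 to 0.153. Old mutants, at 614 ± 183, and young mutants, at 631 ± 94.4, did not differ beyond their spread (-0.09, 95% interval -0.55 to 0.37, adjusted p = 0.839). The age effect in mutants minus that in wildtype was -0.77 (95% interval -1.41 to -0.12, limma adjusted p = 0.101).

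Slc13a4 had 252, 783, 1380, 618 and 1079 normalised counts in old mutant against 980, 1670, 2288, 1064 and 1441 in old wildtype libraries. The old mutant mean was lower, but the groups overlapped (log2 fold change -0.996, 95% interval -1.82 to -0.17, limma adjusted p = 0.0971). Young mutant libraries averaged 1211 ± 287 and young wildtype ones 1023 ± 344 (0.31, adjusted p = 0.595), with young wildtype library 2 at 414, far below the other 4.

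Slc5a5 stood lower in mutants of both ages without a call. Its means were 285 ± 106 in old mutant, 402 ± 133 in old wildtype, 313 ± 46.8 in young mutant and 421 ± 88.4 in young wildtype libraries. The log2 fold change was -0.51 in old (limma adjusted p = 0.165) and -0.41 in young animals (adjusted p = 0.230), and every pair of groups overlapped.

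Rpe65a differed more between single libraries than between groups. It had 653, 711, 78.2, 761 and 8.77 normalised counts in old mutant, 1399, 100.3, 130.5, 55.5 and 80.8 in old wildtype, 54.1, 613, 184, 749 and 244 in young mutant, and 802, 477, 247, 571 and 882 in young wildtype libraries. A list of pineal photoreceptor genes had a median of 554 to 959 normalised counts in 7 libraries (old mutant 4, old wildtype 1, young mutant 2 and 4, young wildtype 1, 4 and 5) and 1.95 to 18.5 in the other 13. Rpe65a lay at 571 to 1399 in the 7 and at 8.77 to 711 in the 13. Old mutant libraries 1 and 2, at 653 and 711, were high in rpe65a with pineal medians of 4.92 and 3.17. No comparison of rpe65a was called, with the largest log2 fold change in size at -1.83 in old over young wildtype (95% interval -4.22 to 0.57, limma adjusted p = 0.225).

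Hapln1b had few reads in telencephalon, at 8.20 to 35.01 normalised counts over the 20 libraries. Its means were 14.7 ± 11.3 in old mutant, 20.3 ± 8.97 in old wildtype, 18.9 ± 10.2 in young mutant and 23.1 ± 5.49 in young wildtype libraries, and every pair of groups overlapped. Limma adjusted p-values of its comparisons between 2 groups ran from 0.373 to 0.821.

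**Figure D3:**
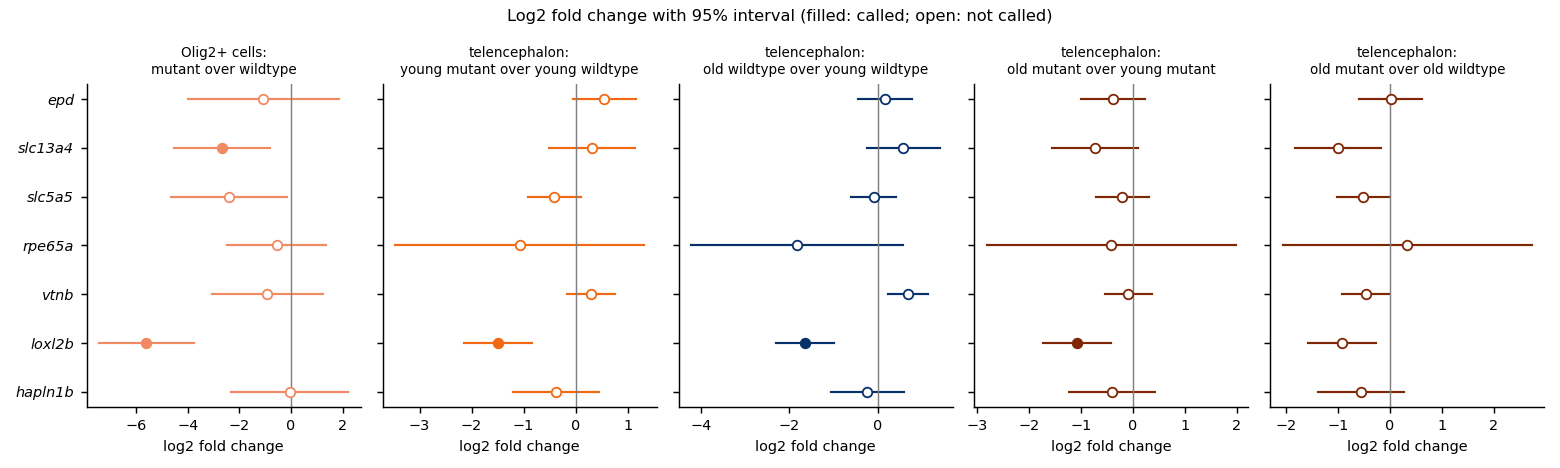
Log2 fold change (point) with its unadjusted 95% interval (line) of the 7 genes in the 5 comparisons not used to pick them, each panel with its own axis; filled points were called. Loxl2b is filled in 4 panels, slc13a4 in the Olig2+ panel, and rpe65a and the Olig2+ values have the widest intervals.

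Over the 7 members the median log2 fold change was -0.10 in old over young wildtype, -0.38 in young mutant over young wildtype, -0.41 in old over young mutant and -0.51 in old mutant over old wildtype, beside medians of all genes within 0.01 of 0 in each. Each group serves in 2 of these 4 comparisons.

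Of the 74 meningeal genes tested in telencephalon, 9 were called lower and 3 higher in old over young wildtype, 12.2% lower beside 5.66% of all genes. In young mutant over young wildtype 7 were called lower and 3 higher, 9.46% lower beside 3.82%. In old over young mutant 6 were called lower and 1 higher (8.11% beside 1.02%), and in old mutant over old wildtype 5 and 2 (6.76% beside 1.58%). The medians of the lists' log2 fold changes lay between -0.34 and -0.24. Ptgdsb.1, a prostaglandin D synthase, rose in old over young wildtype and in young mutant over young wildtype: it averaged 3055 ± 497 in old wildtype and 1786 ± 361 in young mutant libraries, against 494 ± 117 in young wildtype (log2 fold changes 2.64 and 1.86, limma adjusted p = 7.9e-09 and 1.2e-06).

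In old over young wildtype the genes that fell included the collagen gene col6a1 (132 ± 26.7 against 455 ± 60.2, log2 fold change -1.79, limma adjusted p = 5.9e-05) and the transcription factor zic4 (-1.08, and -0.87 without old wildtype library 4). In young mutant over young wildtype 5 of 20 transcription factors were called lower, among them twist1b (5.63 ± 3.18 against 62.6 ± 10.03, -3.35, adjusted p = 4.7e-06) and foxc1a (79.9 ± 15.5 against 223 ± 38.5, -1.47, adjusted p = 0.000113), both regulators of head mesenchyme. The calls of tbx15 (-1.01) and tbx18 (-1.08) ended without the libraries rich in pineal transcripts, at log2 fold changes of -0.51 and -0.50 (adjusted p = 0.456 and 0.516), and fell short of 2-fold without some single libraries, young wildtype 4 for both (-0.83 and -0.998). Twist1b was called higher in old over young mutant, at 27.2 ± 15.9 against 5.63 ± 3.18 (1.93, limma adjusted p = 0.00859). The age effect in mutants minus that in wildtype was called for twist1b (1.75), foxc1a (1.06), zic4 (1.05) and ptgdsb.1 (-2.28). Their limma adjusted p ran from 1.7e-05 to 0.0385, where 6.04% of all genes were called.

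Among relatives of the members, loxl2a, the paralogue of loxl2b, had few reads and was called higher in both comparisons in which loxl2b was lower: 15.3 ± 6.67 in old wildtype and 19.4 ± 11.8 in young mutant libraries against 5.29 ± 6.99 in young wildtype (log2 fold changes 1.78 and 1.93, limma adjusted p = 0.0342 and 0.0280). Both calls ended with edgeR (adjusted p = 0.104 and 0.061), and for loxl2a each ended without any 1 of young wildtype libraries 1 to 4, of old wildtype libraries 2, 3 and 5 in the first comparison and of young mutant libraries 2, 3 and 4 in the second, at adjusted p of 0.056 to 0.088. Hapln4, a brain link protein, was lower in the same 2 comparisons (-1.90 and -1.51, adjusted p = 0.000408 and 0.00328), the second not called without the libraries rich in pineal transcripts (hapln4 -1.33, adjusted p = 0.118). Junction, neuronal, endothelial and oligodendrocyte lineage lists had at most 1 gene called in either direction in these 2 comparisons.

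Across the 20 telencephalon libraries, with group means taken out of the log2 values, 4 members varied together. The deviation of epd had a Pearson's r of 0.93 with that of vtnb (Spearman's rho 0.95), 0.92 with slc13a4 (rho 0.87) and 0.76 with slc5a5 (rho 0.73). By permutation within groups (100000 draws) the p-values of r were 1e-05, the smallest they can give, 8e-05 and 0.0008, and those of rho 1e-05, 4e-05 and 0.00207. Over 21 pairs the Benjamini-Hochberg adjusted p of r was 0.00021, 0.00084 and 0.00336. Leaving out the 2 libraries farthest from the median of epd gave r of 0.93, 0.87 and 0.66. With the lists of meningeal transcription factors, fibroblast matrix, and transport and retinoid handling, epd had r of only 0.24, 0.48 and 0.23. Here rho was 0.40, 0.56 and 0.06. Its r was 0.68 with hyaluronan enzymes and proteoglycans, 0.62 with meningeal lymphatic endothelium and 0.58 with oligodendrocyte lineage genes. There rho was 0.72, 0.65 and 0.74 (unadjusted permutation p = 0.00174, 0.00788 and 0.00153), beside 0.73 for epd with slc5a5. None of these 6 r passed a permutation adjusted p of 0.05, taken over all pairs of a member and a list rather than over 21. Slc5a5 did pass with the hyaluronan list (r 0.78, permutation adjusted p = 0.0437). The shared variation is thus not shown to be particular to these 4 members, and what it tracks was not tested.

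All 6 pairs among epd, slc13a4, slc5a5 and vtnb passed an adjusted p of 0.05 by Pearson's r, and none of the 9 pairs that joined loxl2b or hapln1b to these or to each other did. Loxl2b stood apart, with an r of -0.09 with epd (permutation p = 0.854, rho 0.10, p = 0.706). Hapln1b gave an r of 0.40 with epd (permutation p = 0.182) but a rho of 0.66 (permutation p = 0.00342, adjusted 0.0120). With vtnb its r was 0.58 (permutation adjusted p = 0.0676) and its rho 0.64 (permutation adjusted p = 0.0146). With slc13a4 and slc5a5 neither r nor rho passed. No pooled r with other members is given for rpe65a, most of whose high libraries were rich in pineal transcripts. The 6 pairs of rpe65a are counted in the adjustment over 21, and none of them passed an adjusted p of 0.05 by r or rho. Pineal genes were not the only correlate of rpe65a among the lists, with pineal-rich and other libraries pooled. Its r was 0.80 with blood vessel endothelium (permutation adjusted p = 0.00336), 0.65 with pineal genes (0.0370) and 0.65 with meningeal transport and retinoid genes (0.125). The libraries share dissection and amplification, so the values describe how the genes vary over these samples.

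**Figure D4:**
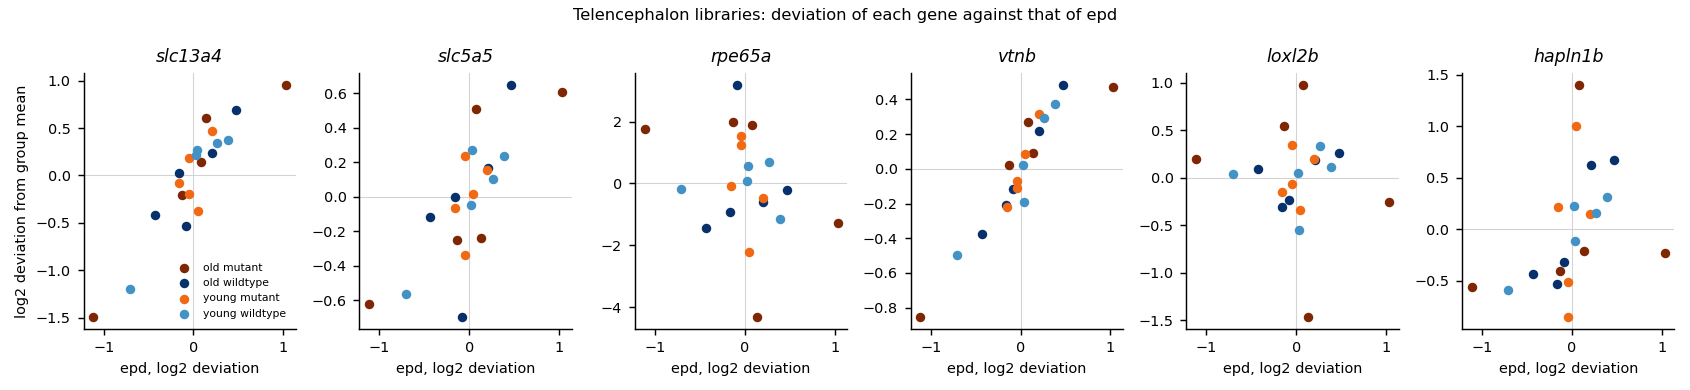
Log2 deviation of each gene from its group mean (vertical axis) against the log2 deviation of epd (horizontal axis) in the 20 telencephalon libraries, coloured by group. Slc13a4, slc5a5 and vtnb rise with epd, with old mutant library 1 at the left and old mutant library 3 at the right end of each panel, whereas the loxl2b points show no slope.

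Among 17155 genes, vtnb had the 4th highest r with epd, slc13a4 the 8th and slc5a5 the 41st. The genes nearest to epd were si:dkeyp-106c3.1 (r 0.97), lamc3, a laminin chain (0.94), fxyd1, a regulator of the sodium pump (0.94), si:ch73-86n18.1 (0.93), ggctb (0.92) and pcxa (0.92).

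The reads of each member per 1000 epd reads of the same library compare each with epd. In Mpeg1+ cells 5 of the 6 others were lower without overlap in the libraries labelled mutant, which 0.459% of all genes were. That share is low through the denominator, as epd itself was about 202 times lower. A ratio fell only where a gene fell further than epd or had too few reads to be seen. Loxl2b had ratios of 0.338, 1.16 and 0.0170 in the wildtype-labelled libraries and 0 reads in those labelled mutant. The latter held 10857 epd reads together, too few to show a further fall of loxl2b at the lowest of these ratios. Slc13a4 had a median of 1.08 in the libraries labelled mutant against 4.98 in those labelled wildtype, slc5a5 0.98 against 3.09, vtnb 0 against 3.44 and rpe65a 0 against 1.70. Hapln1b overlapped. These ratios use the contrast by which the members were picked and are a description.

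In Olig2+ cells loxl2b was the 1 member with no overlap, at 1.57 to 3.09 reads per 1000 epd reads in mutant against 9.99 to 569 in wildtype libraries (0.395% of all genes lower without overlap). This share is also low through the denominator. Epd spread 29.1 times over the mutant and 47.5 times over the wildtype libraries, so genes that do not vary with it tend to overlap. Without the division 13.7% of all genes were lower without overlap. Slc5a5, slc13a4 and vtnb overlapped, with medians of 1.03, 3.45 and 4.43 in mutant against 3.28, 8.48 and 4.24 in wildtype libraries.

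In telencephalon the ratios to epd were tight for vtnb. Old wildtype libraries held 5.03 to 5.38 vtnb reads per 1000 epd reads, above the 3.09 to 4.18 of young wildtype (2.61% of all genes were higher without overlap) and the 2.90 to 3.29 of young mutant libraries (17.7%). In old mutants the ratio was 2.52 to 4.46, below every old wildtype library, and slc13a4 did the same, at 3.46 to 6.22 in old mutant against 6.62 to 10.5 in old wildtype (0.352% of all genes lower without overlap). Epd itself spread 4.44 times over the old mutant libraries, so this share is low through the denominator too.

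Young mutants had less slc5a5 per epd read, 1.23 to 1.83 against 2.62 to 3.45 in young wildtype libraries, and less loxl2b, 0.589 to 1.01 against 2.12 to 5.34, where 32.2% of all genes were lower without overlap and epd itself lay higher. In old over young wildtype loxl2b was lower without overlap too, 0.782 to 1.31 against 2.12 to 5.34 (5.98% of all genes). In old over young mutant no member was free of overlap (0.151% of all genes were lower and 0.272% higher without overlap, with the same wide spread of epd in old mutants).

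**Figure D5:**
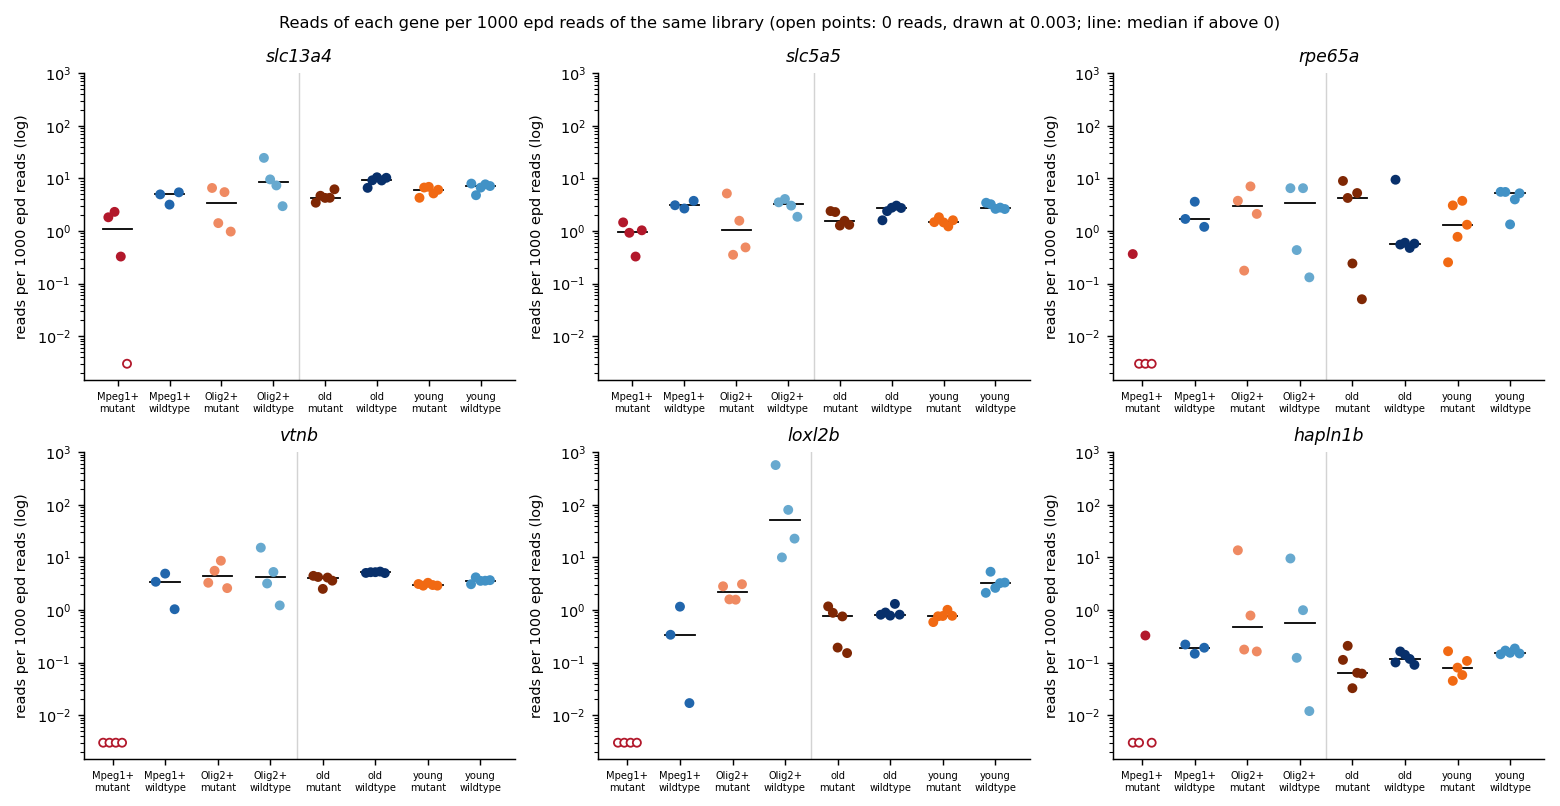
Reads of each gene per 1000 epd reads of the same library (log axis), 1 point per library, with sorted cells left of the grey line and telencephalon right of it; open points mark 0 reads and are drawn at 0.003, and the black line is the group median. Vtnb keeps within 2.52 to 5.38 over all telencephalon libraries, while loxl2b reaches 569 in a wildtype Olig2+ library.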

How the data were processed

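RNA from whole telencephali and from FACS-sorted Mpeg1+ and Olig2+ cells was amplified with SMART-Seq v4, and all libraries were prepared together and multiplexed. Per the study's methods and processing notes, the authors used STAR with GRCz10 and scaled each library's gene counts by its size factor from DESeq2 (3.9), 1 table per population. The deposited values are therefore a signal of normalised counts, not raw counts. Each column was a set of whole multiples of 1 unit, and dividing by it gave whole reads for 100% of values; these gave the depth and served for RPM, ratios, counting intervals (95%) and count models. No source used here states the strand of counting.

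Genes with a mean of at least 5 were tested as log2(value + 1) with limma 3.58.1 (R 4.3.3, trend and robust), Benjamini-Hochberg adjusted over all genes of a comparison, with calls where the adjusted p did not exceed 0.05 and the fold was 2 or more. The 4 telencephalon groups shared 1 fit and each sorted population had its own. Exact permutation tests were two-sided and compared group means. Python 3.11.15 and scipy 1.17.1 were used. Alternatives were pseudocounts of 0.25 and 4, no filter, a filter at 50, equal totals, no fold threshold, edgeR 4.0.16 and DESeq2 1.42.0 on recovered reads, replicate number as a block, 2-group fits, leaving out the libraries rich in pineal transcripts, averaging alike libraries, and leaving out each library. Over all genes edgeR called 1474 in Mpeg1+ and 4777 in Olig2+ cells, and 2140 in old over young wildtype and 1732 in young mutant over young wildtype telencephalon. The limma procedure was tested on simulated data.

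The members and gene lists were chosen with earlier results of these data known. Genes named are the 7 members, up to 4 called genes of each list (smallest p first) and its 3 most abundant, the 10 genes nearest to epd by correlation (mean of at least 20; a ranking by mean r with 5 members was not used, since it pools rpe65a), and grna and grnb; the named list genes are a selection of these. Symbols came from the gene-name tables, which gave 22186 of 24030, 23122 of 25248 and 21369 of 23158 identifiers a name in telencephalon, Olig2+ and Mpeg1+ cells. Replicate numbers come from the sample titles. Deviations of same-numbered libraries had correlations of -0.01 to 0.01 over 3 numbers in Mpeg1+ and -0.01 to 0.24 over 4 in Olig2+ cells. Over 30 pairs in telencephalon they ran from -0.45 to 0.63 (median 0.06), and the main tests used no pairing. Number 4 gave 0.41, 0.42 and 0.63 among young wildtype, young mutant and old mutant libraries, all rich in pineal transcripts. Whether a number marks shared handling was not tested. No source used here says which samples shared parents or a day of dissection, and p-values measure the spread between these samples only, and counting intervals and floors cover counting error only. Levels were not compared between genes, for want of lengths. Sequences and coordinates were not used here.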

Additional observations from a re-analysis of the deposited data

Results flagged for a closer look

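In 63 groups of 4 or 5 libraries screened, 8 library values of the members and of grna stood far from the rest. The rule was a gap to the next value over the whole range above Dixon's 95% critical value. For normally distributed values chance flags about 1 in 20 groups, a rate that need not hold for skewed counts or counts near 0. A group with reads in 1 library and 0 in the others is always flagged. Slc13a4 was highest in wildtype Olig2+ library 2, at 720.7 normalised counts with the next at 149.5, and lowest in young wildtype telencephalon library 2, at 413.9 with the next at 1106. Rpe65a stood at 1399 in old wildtype library 1 with the next at 130.5, at 47.2 in mutant Olig2+ library 4 with the next at 11.02, and at 0.738 in Mpeg1+ library 1 labelled mutant with the others at 0. Hapln1b stood at 34.8 in old mutant library 2 with the next at 10.7, and at 0.824 in Mpeg1+ library 3 labelled mutant with the others at 0. The values of 0.738 and 0.824 are 1 read each. Grna stood at 2153 in old wildtype library 5 with the next at 844.

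The age effect on grnb differed between genotypes: its log2 fold change with age was higher by 2.78 in mutant than in wildtype telencephalon (limma adjusted p = 0.000370 for the difference). Grnb moved in opposite directions in the sorted populations, with a log2 fold change of 1.90 in Mpeg1+ libraries labelled mutant over those labelled wildtype and -1.62 in Olig2+ mutant over wildtype libraries, and that difference was not tested.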

How the results depend on the processing

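Loxl2b kept its call in Olig2+ cells and in old over young wildtype telencephalon in every alternative run; its other calls, and slc13a4 in Olig2+ cells, did not hold throughout. No result changed sign while called. With the fold threshold dropped, 2 members were called in old over young wildtype, vtnb being the second. Without the libraries rich in pineal transcripts, 0 members were called in young mutant over young wildtype. In old over young mutant the count of members called was 0 with no filter, with edgeR, with DESeq2 (fold under 2), with the 2 groups alone and without the pineal-rich libraries. Leaving out 1 library at a time gave 1 to 3 members called in Olig2+ cells, 1 to 1 in old over young wildtype and in young mutant over young wildtype, and 0 to 1 in old over young mutant and in old mutant over old wildtype. The Mpeg1+ median log2 fold change of the members was -7.53 with a pseudocount of 4 and -9.60 with DESeq2, and -8.89 to -8.52 with 1 library left out. Meningeal genes called in Mpeg1+ cells numbered 9 with replicate number as a block, 37 with DESeq2, 2 with alike libraries averaged and 11 to 42 with 1 library left out. The block changed no other count of calls listed here by over 1.5 times, and no source used here says that replicate numbers pair these samples. The median pairwise correlation of the 7 members, pooled rpe65a pairs included, was 0.44 by Spearman and 0.42 without the pineal-rich libraries, beside 0.33, and 0.27 to 0.43 with 1 library left out. Over all genes DESeq2 called 3610 in Mpeg1+ cells, against 1798 with limma, and 419 in old over young mutant, against 263. Causes were not tested. The low depth of mutant Olig2+ libraries and the 0 or 1 reads of most members in Mpeg1+ libraries labelled mutant limit the size of those differences.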

Other observations

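The genes most like epd over the telencephalon libraries did not all follow it in sorted cells. Ggctb lay at 388 to 469 normalised counts in Mpeg1+ libraries labelled mutant against 28132 to 47264 in those labelled wildtype, and lamc3 at 0 to 14.1 against 94.0 to 1619. Si:ch73-86n18.1 went the other way, at 7614 to 8514 in the libraries labelled mutant against 2782 to 3770 in those labelled wildtype. In Olig2+ cells ggctb was highest in libraries 2 and 4 of both genotypes, as epd was, with 2948 and 1220 in mutant and 6781 and 4544 in wildtype libraries.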
